A study of Oryza sativa with 2 samples.

Results

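Ascorbate peroxidases and catalases are the enzymes that remove hydrogen peroxide from the main compartments of a rice leaf cell. A set of 10 such genes was named for study, the ascorbate peroxidase genes APX1, APX2, APX3, APX4, APX6, APX7 and APX8 and the catalase genes CATA, CATB and CATC, and each was looked up by symbol or synonym in a table of rice genes. The table held 9 of the 10 names, and 8 of those genes, out of 17905 genes with a probe set of their own on the array, could be measured. APX3 and CATC are not analysed here. The 8 genes were read by 17 probe sets, all of which passed the filter on low signal. The members were taken by name and not by a rule on their values, though with earlier results of these data known.

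Leaves came from 2 groups of seedlings of the indica rice cultivar 9311, plants carrying an OsEATB transgene and nontransgenic 9311 plants. OsEATB is a transcription factor of the ERF family that the rice literature connects with ethylene and gibberellin. Both groups were grown at 28 °C in half-strength Murashige and Skoog medium with 14 h of light and 10 h of darkness, were sampled at the 4-leaf stage as 10 plants each, and otherwise shared cultivar, tissue and treatment. Each group was hybridised to 1 array, so no value here has a replicate behind it, no p-value was computed, and the number of arrays limits the precision. The sources used here do not name the promoter of the transgene or say how many transformed lines the plants came from. The array signal of OsEATB itself was not analysed here, so the labels of the arrays stand without a check from the transgene.

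Ascorbate peroxidase spends ascorbate to turn hydrogen peroxide into water, and the oxidised ascorbate is then recycled by reductases that draw on NADH, NADPH and glutathione. Catalase splits hydrogen peroxide without any reductant, binds it less tightly and handles large fluxes, above all in leaf peroxisomes, where glycolate oxidase releases hydrogen peroxide during photorespiration. In rice the ascorbate peroxidases are divided among the cytosol (APX1 and APX2), the peroxisome (APX3 and APX4), the mitochondrion (APX5 and APX6), the chloroplast stroma (APX7) and the thylakoid (APX8), and the catalases lie in the peroxisome.

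The values are log2 signals on the scale set by the authors, which gave both arrays a trimmed mean linear signal of 500.1. A difference is always the transgenic minus the nontransgenic log2 signal, and a gene was called when it reached 2-fold. The median log2 signal was 5.32 on the transgenic and 5.16 on the nontransgenic array. Of 7 leaf marker genes with a probe set, 6 passed the level filter. The brightest probe sets of RBCS, CAB2R, LHCP, PETE and RCA, which encode parts of the photosynthetic machinery, read between 15.75 and 16.26 on the transgenic and between 15.26 and 15.86 on the nontransgenic array, with differences of 0.39 to 0.49, while GLO1 had -0.22 and RBCS1 did not pass. Of 10 seed marker genes with a probe set, 5 passed, and 1 of these, the glutelin gene GLUB5, was called, 3.58-fold higher at 6.49 on the transgenic and 4.65 on the nontransgenic array. The brightest of that list were GLUA2, at 11.23 on the transgenic and 10.96 on the nontransgenic array, and GLB1, at 11.87 on the transgenic and 12.27 on the nontransgenic array, though GLB1 was matched by its symbol alone and may not be the seed globulin. Of 5 root marker genes 4 passed and 0 were called. Over all genes 10.5% were called, a share that stands beside the counts of both the seed and the root list. The brightest root marker genes were LSI1, at 9.57 on the transgenic and 8.62 on the nontransgenic array, and NAS2, at 6.92 on the transgenic and 6.26 on the nontransgenic array. The measured root genes had 3 above and 1 below 0, and the seed genes 3 above and 2 below. Named after their values were seen, NAS1 and RAG2 went lower. NAS1 read 4.87 on the transgenic and 5.75 on the nontransgenic array, 1.84-fold lower. RAG2 read 6.48 on the transgenic and 7.38 on the nontransgenic array, 1.86-fold lower. All 27 probe sets for the bacterial hybridisation controls were brighter on the transgenic array, with a median difference of 0.90 (range 0.67 to 1.18), and 29 of 36 probe sets for the spiked poly-A controls were brighter there, with a median of 0.49. The authors' scale makes the trimmed means of the arrays equal and not these spikes, so the differences below are relative to the bulk of the array signal. Whether the leaves differed in total RNA was not tested.

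On the authors' scale no ascorbate peroxidase or catalase gene differed by 2-fold between transgenic and nontransgenic leaves. Of the 8 measured genes, 0 were called higher and 0 lower, where 6.07% of 15192 genes were called higher, 4.44% lower and 10.5% in either direction. At the milder limit of 1.5-fold 0 of the 8 genes were called as well, beside 23.6% of all genes. These shares are dominated by dim genes. When all genes were split by brightness into 4 equal classes, the 3798 genes of the brightest class held 6 of the 8 members, and among all 3798 a share of 1.5% differed by 2-fold and 6.79% by 1.5-fold. A count of 0 of 8 is close to these background shares. The largest fold was 1.42, for APX7. The median difference of the 8 genes was 0.22, where the median was -0.01 over all genes and 0.04 over the brightest class. With quantile normalization and lowess centring the median of the 8 was 0.10 and 0.11. A lower signal in such bulk tissue could come from fewer cells of a type or from less RNA per cell, which cannot be told apart.

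**Figure D1:**
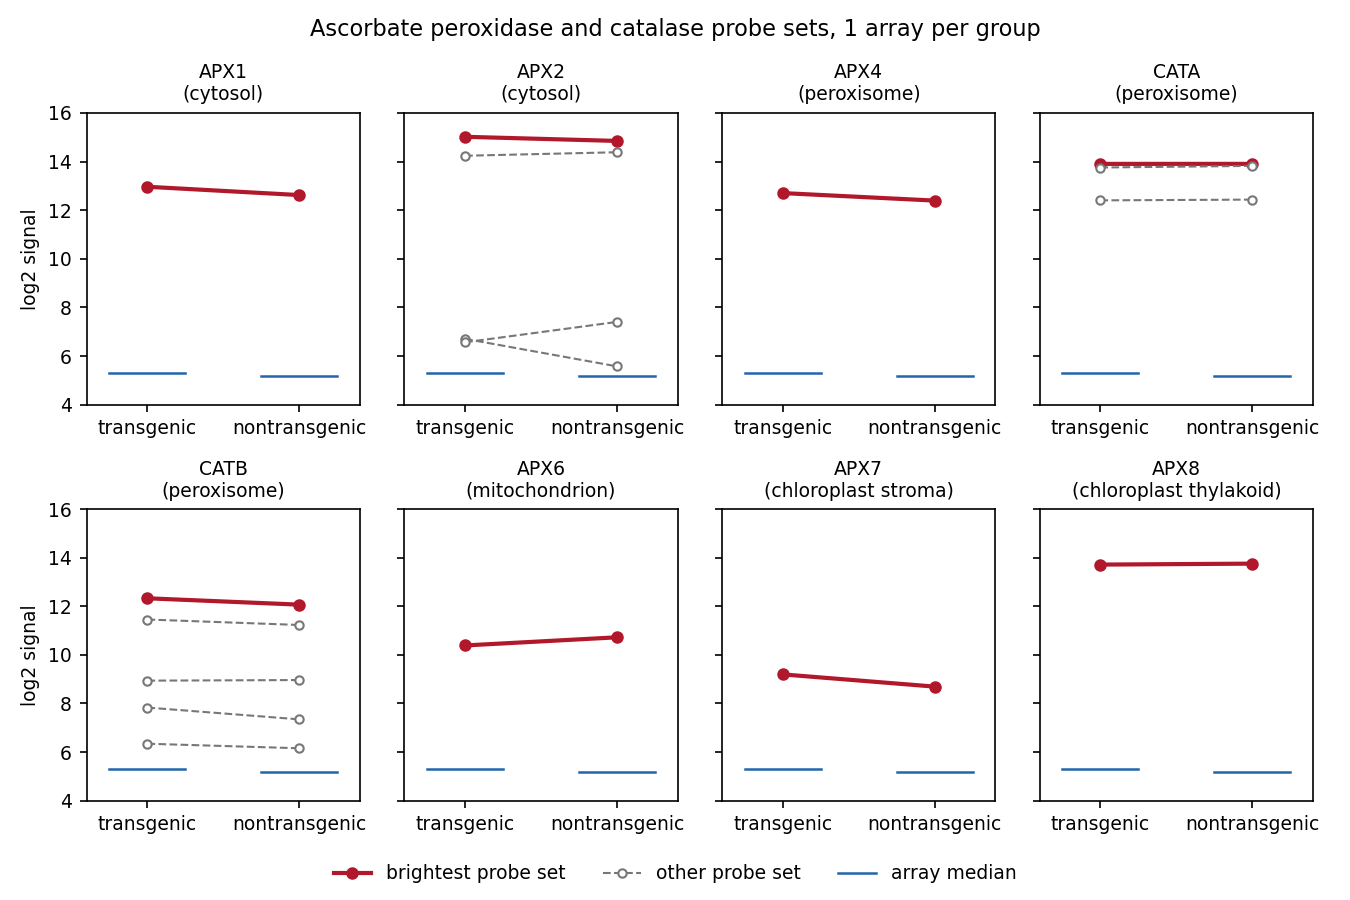
Log2 signal of each of the 17 probe sets of the 8 measured genes on the transgenic array (left in each panel) and the nontransgenic array (right), with 1 array per group and no error bars. Filled red points are the brightest probe set of a gene, open grey points its other probe sets, and blue bars the median of each array; the lines of the brightest probe sets are close to level, and the steepest slopes belong to dim probe sets of APX2.

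The error within an array was gauged from genes that have several probe sets, since these read the same RNA. The brightest probe set and the next one were compared in 805 genes where both had a log2 signal of at least 8.87. Their differences scattered with an SD of 0.31 per probe set, and they had the same sign in 65.7% of those genes. In the dim group, below 6.52, the SD was 0.75 and the sign was shared by 54.2%. This scatter covers the probes and not the plants, the extraction or the hybridisation, so that the full error of a difference is unknown. It serves as a yardstick and not as a detection limit.

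The cytosolic enzymes are the major soluble ascorbate peroxidases of rice. APX1 (LOC4332474) had a log2 signal of 12.97 on the transgenic and 12.62 on the nontransgenic array. Its single probe set thus read 0.34 higher in transgenic leaves, a 1.27-fold difference and 1.11 times the scatter between probe sets. A difference of that size in either direction was found in 23.1% of the genes in the brightest class. On the ranked list of all probe sets APX1 stood at percentile 97.8 on the transgenic and 97.2 on the nontransgenic array.

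APX2 (LOC4344397) had 4 probe sets, and these did not point the same way. The brightest read 15.02 on the transgenic and 14.85 on the nontransgenic array, a difference of 0.17, or 0.55 times the scatter. The next, an _x_at set whose probes may hybridise to other transcripts, read 14.24 on the transgenic and 14.39 on the nontransgenic array, a difference of -0.14. Both are small against the scatter, and they have opposite signs. The remaining 2 sets were dim. A set at 6.71 on the transgenic and 5.58 on the nontransgenic array was 2.19-fold higher, and a set at 6.57 on the transgenic and 7.40 on the nontransgenic array was 1.79-fold lower. The first of these was the sole probe set of the 17 to pass 2-fold, where 18.1% of all passing probe sets did so. The differences of the 4 sets spanned 1.97 on the log2 scale. A span as wide was found in 7.44% of the 484 genes with 3 or more passing probe sets, whose median span was 0.80. The sign of APX2 also turned with the scaling, to -0.05 after quantile normalization and -0.03 after lowess centring, so that no direction is given for it.

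The peroxisome held 3 measured members, APX4, CATA and CATB. APX4 (LOC4346247), a membrane-bound ascorbate peroxidase of peroxisomes, read 12.70 on the transgenic and 12.40 on the nontransgenic array. It was 1.24-fold higher in transgenic leaves, a difference of 0.31 that equals 1.01 times the scatter, and 27.3% of the genes in the brightest class differed by as much.

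CATA (LOC4328073) was the most level gene of the set. Its brightest probe set read 13.91 on both arrays, with a difference of -0.0005. The other 2 sets read 12.41 and 13.76 on the transgenic array, against 12.44 and 13.82 on the nontransgenic array, with differences of -0.03 and -0.07. All 3 sets were thus within 0.07 of one another, a narrower span than in 99.8% of the genes with 3 or more passing probe sets. Of these sets, 2 were designed on the same source sequence and may share probes, so their closeness is not that of independent measurements.

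CATB (LOC4342124), a second peroxisomal catalase, was read by 5 probe sets, 4 of them higher in transgenic leaves. The brightest, an _s_at set that may detect related transcripts, read 12.33 on the transgenic and 12.06 on the nontransgenic array, a difference of 0.26 or 0.85 times the scatter. The next read 11.45 on the transgenic and 11.23 on the nontransgenic array, a difference of 0.23. A set at 7.83 on the transgenic and 7.34 on the nontransgenic array differed by 0.49, and a dim set at 6.34 on the transgenic and 6.16 on the nontransgenic array by 0.19. The remaining set was level, at 8.94 on the transgenic and 8.96 on the nontransgenic array. Each of the 5 differences was smaller than the scatter for its brightness. The brightest set and the set at 7.83 on the transgenic array were designed on the same source sequence and may share probes. Their shared direction is thus not that of independent measurements. The gap between the differences of CATB and CATA was 0.26.

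APX6 (LOC4351663), a mitochondrial ascorbate peroxidase, was the lowest of the set relative to nontransgenic leaves. It read 10.39 on the transgenic and 10.72 on the nontransgenic array, 1.26-fold lower, with a difference of -0.33 or 1.09 times the scatter. Differences as large were found in 27.8% of genes of its brightness class. On the ranked list of probe sets it stood at percentile 86.9 on the transgenic and 88.8 on the nontransgenic array. APX5 (LOC4351664), the neighbouring gene in the reference with 0 annotated genes between them, was not among the 10 names and was looked at after its values were seen. It read 6.10 on the transgenic and 5.14 on the nontransgenic array, a difference of 0.96 against a scatter of 0.75 at that brightness.

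The chloroplast pair read differently on these 2 arrays. APX7 (LOC4335896), the stromal enzyme, read 9.19 on the transgenic and 8.69 on the nontransgenic array. Its difference of 0.50 was the largest of the set, at 1.63 times the scatter of the bright group. APX7 lies only just inside that group, and in the next dimmer group the scatter was 0.59. In its brightness class, 27.9% of genes differed by as much. APX8 (LOC4329643), the thylakoid enzyme, was level, at 13.71 on the transgenic and 13.75 on the nontransgenic array, a difference of -0.04. The gap between the 2 differences was 0.54, which does not depend on a shift common to the whole array. It does depend on scaling that follows brightness, since APX8 is far brighter than APX7. With quantile normalization APX7 and APX8 differed by 0.55 and -0.16, and with lowess centring by 0.58 and -0.15. The gap carries the scatter of both genes, and without replicates it was not tested.

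**Figure D2:**
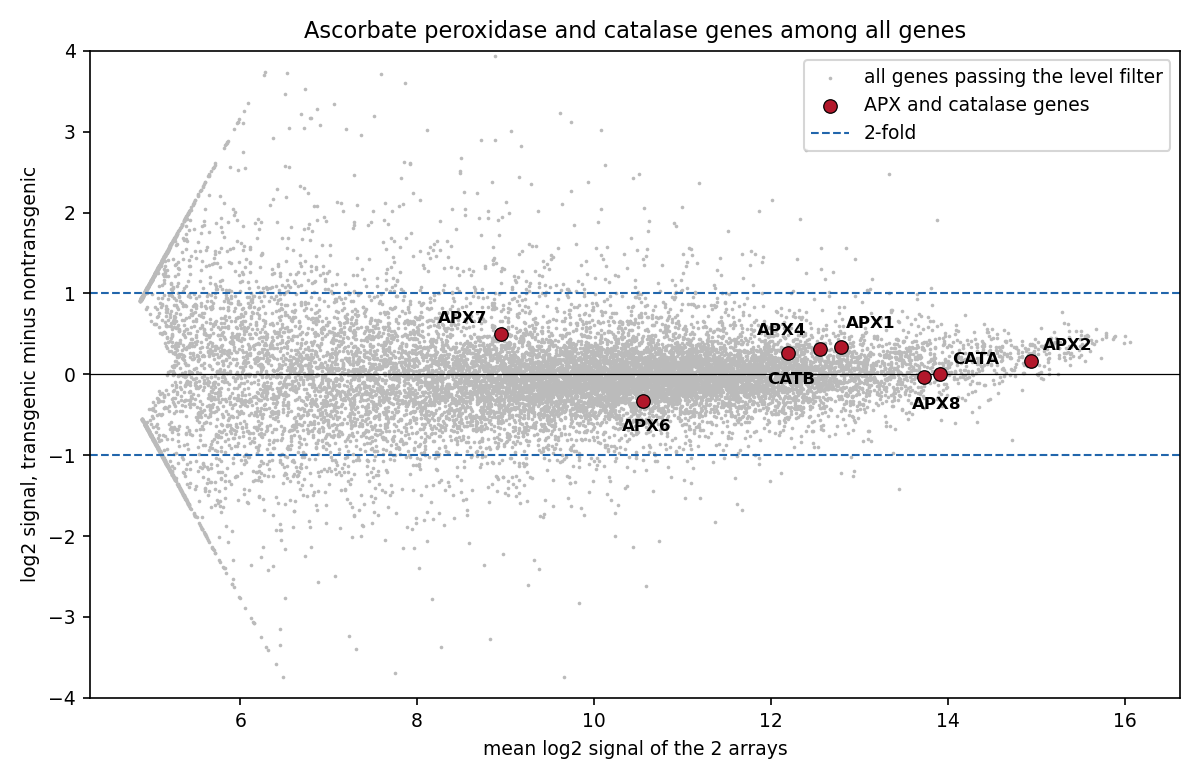
Difference in log2 signal (transgenic minus nontransgenic, vertical) against mean log2 signal (horizontal, with signals below the floor raised to it) for 15192 genes in grey and the 8 measured ascorbate peroxidase and catalase genes in red. Dashed lines mark 2-fold and 45 genes lie outside the vertical axis limits of -4 and 4; all 8 red points sit between -0.33 and 0.50, inside the cloud of genes of like brightness.

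Set side by side, the 8 genes ran from -0.33 for APX6 to 0.50 for APX7, a spread of 0.84. In the brightest class the central 80% of genes lay between -0.33 and 0.40. In the next class, to which APX6 belongs, it was -0.45 to 0.39, and in the one after that, with APX7, it was -0.67 to 0.58. All 8 genes lay within the central range of their own class. The signs were 5 above and 3 below 0. Among the 17 probe sets 9 were above and 8 below 0, beside 48.7% of all passing probe sets above 0. By compartment, the cytosolic genes differed by 0.34 and 0.17, the peroxisomal genes by 0.31, 0.26 and -0.0005, the mitochondrial gene by -0.33 and the chloroplast genes by 0.50 and -0.04.

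The other genes around hydrogen peroxide and ascorbate were taken from lists of 11 gene groups, of which 28 genes were in the gene table and 25 were measured. Of the 25, 0 were called higher and 1 was called lower, where 6.07% of all genes were called higher and 4.44% lower. The count is no more than these shares, and the median difference of the 25 was -0.02. The called gene was RBOHB, which encodes an NADPH oxidase that produces superoxide at the cell surface, a source of apoplastic hydrogen peroxide. It read 9.06 on the transgenic and 10.32 on the nontransgenic array, 2.38-fold lower in transgenic leaves, at 4.08 times the scatter. Differences as large were found in 5.56% of genes of its brightness class.

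Superoxide dismutases, which make hydrogen peroxide out of superoxide, had 4 measured genes, all with a difference below 0 and 0 called, where 51.4% of all genes were below 0 and 10.5% were called. Of the 4 differences 3 were smaller than the scatter. The brightest were SODCC1, a cytosolic copper-zinc enzyme, at 13.56 on the transgenic and 13.81 on the nontransgenic array, and SODA, the mitochondrial manganese enzyme, at 13.09 on the transgenic and 13.35 on the nontransgenic array. The other 2 probe sets of SODA, each with 1 array below the floor, disagreed, with differences of 1.01 and -1.18. SODCP, the chloroplast copper-zinc enzyme, was named after its value was seen. It read 12.06 on the transgenic and 12.91 on the nontransgenic array, 1.80-fold lower, and 2.29% of genes in the brightest class differed by as much. The chloroplast ascorbate peroxidase genes APX7 and APX8 had differences of 0.50 and -0.04 on the same arrays.

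Peroxiredoxins reduce peroxides with thiols in place of ascorbate. Of 5 genes 4 read above 0 and 0 were called, where 48.6% of all genes were above 0 and 10.5% were called. Among the 4, PRXIIC went below 0 with quantile normalization (-0.12) and lowess centring (-0.11). This cytosolic form read 14.64 on the transgenic and 14.58 on the nontransgenic array, and BAS1, a chloroplast 2-Cys form, 13.06 on the transgenic and 12.99 on the nontransgenic array. The largest difference was that of PRXIIE-1, a chloroplast form named after its value was seen, which read 10.99 on the transgenic and 10.00 on the nontransgenic array, 1.99-fold higher. Its log2 difference of 0.996 falls just short of 2-fold and passed it with quantile normalization (1.02), median centring (1.01) and lowess centring (1.03), and 3.37% of the genes in its class differed by as much.

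**Figure D3:**
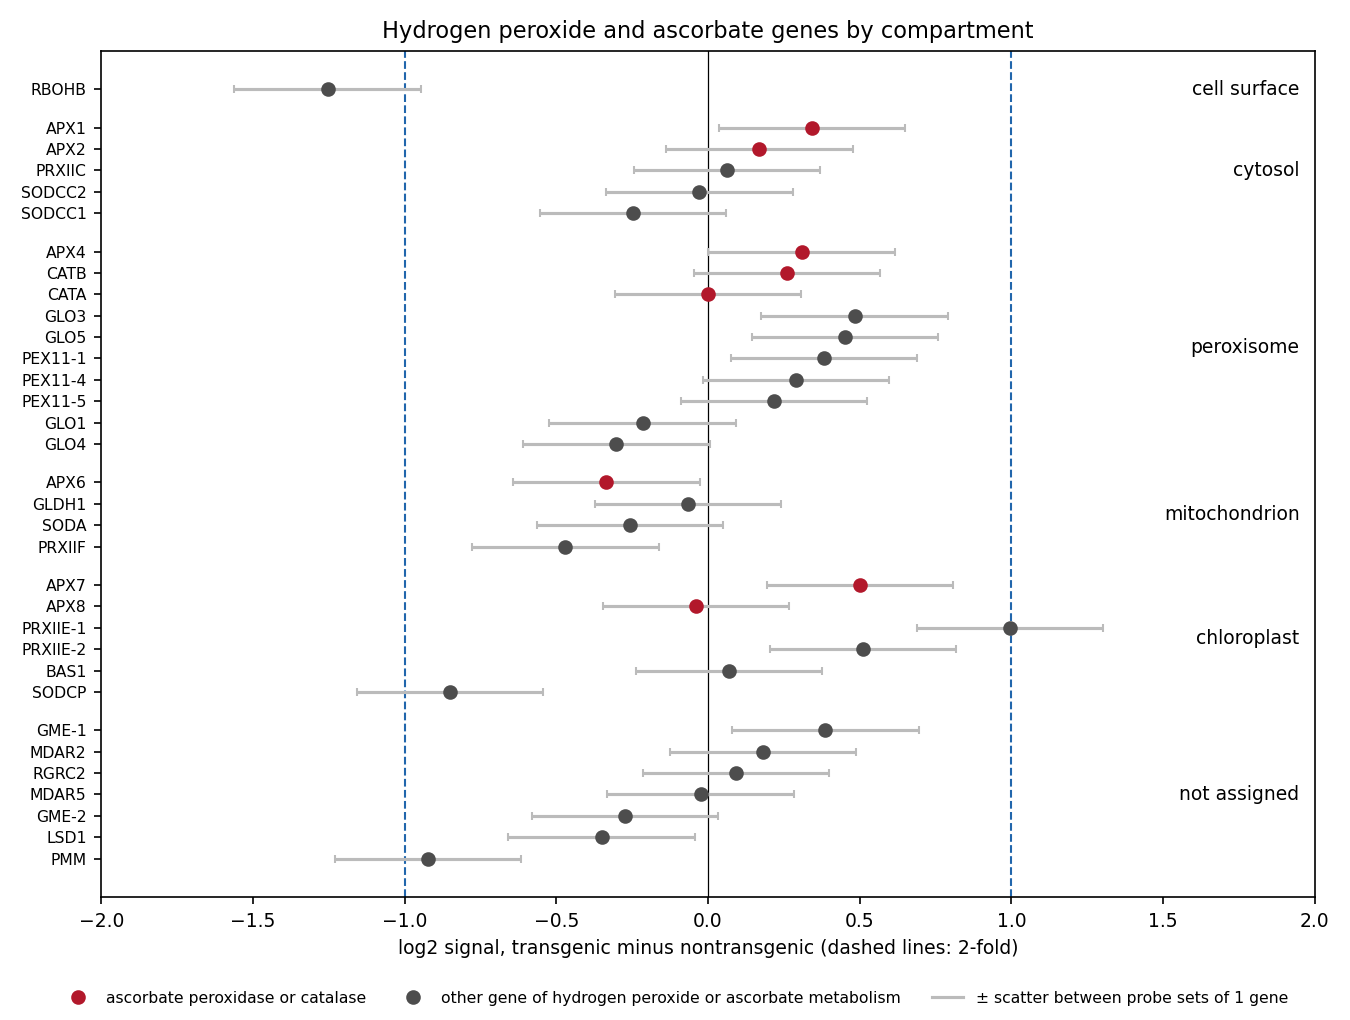
Difference in log2 signal (transgenic minus nontransgenic, horizontal) of the 8 measured ascorbate peroxidase and catalase genes in red and 25 other genes of hydrogen peroxide and ascorbate metabolism in dark grey, grouped by compartment, with the compartments of the grey genes taken from general knowledge. Bars are the scatter between probe sets of 1 gene at like brightness and not a replicate error, and dashed lines mark 2-fold; RBOHB lies beyond the line on the lower side and all red points lie between the lines.

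Genes of the peroxisome were read beside its catalases. Glycolate oxidase, whose hydrogen peroxide the catalases remove, had 4 measured genes, 2 above and 2 below 0. Of these 0 were called, where 10.5% of all genes were called. GLO5 read 14.74 on the transgenic and 14.29 on the nontransgenic array, and GLO1 read 13.79 on the transgenic and 14.00 on the nontransgenic array. These 2 bright genes of the same reaction thus went opposite ways, by 0.45 and -0.22. With quantile normalization the values were 0.28 and -0.33, and with lowess centring 0.28 and -0.34. The peroxisome division genes of the PEX11 family had 3 measured members with differences between 0.22 and 0.38 and 0 called. These differences shrank to between 0.11 and 0.23 with quantile normalization and to between 0.17 and 0.21 with lowess centring. All were then below the scatter of 0.31. The brightest, PEX11-1, read 15.34 on the transgenic and 14.95 on the nontransgenic array, and PEX11-4 read 13.41 on the transgenic and 13.12 on the nontransgenic array. LSD1, a zinc-finger protein whose Arabidopsis relative binds catalases, read 13.41 on the transgenic and 13.76 on the nontransgenic array.

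The genes that supply and recycle ascorbate, the reductant of the ascorbate peroxidases, had 0 calls, where 10.5% of all genes were called. Among the recycling enzymes, the monodehydroascorbate reductase genes MDAR2 and MDAR5 read 13.67 and 11.02 on the transgenic array, against 13.49 and 11.05 on the nontransgenic array. The glutathione reductase gene RGRC2 read 12.88 on the transgenic and 12.79 on the nontransgenic array. All 3 differed by less than the scatter. In ascorbate synthesis, GME-1 and GME-2, which encode GDP-mannose epimerases, had differences of 0.39 and -0.27, with GME-1 at 13.23 on the transgenic and 12.84 on the nontransgenic array. GME-2 read 10.64 on the transgenic and 10.91 on the nontransgenic array. The group had 4 measured genes, 1 above and 3 below 0.

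**Figure D4:**
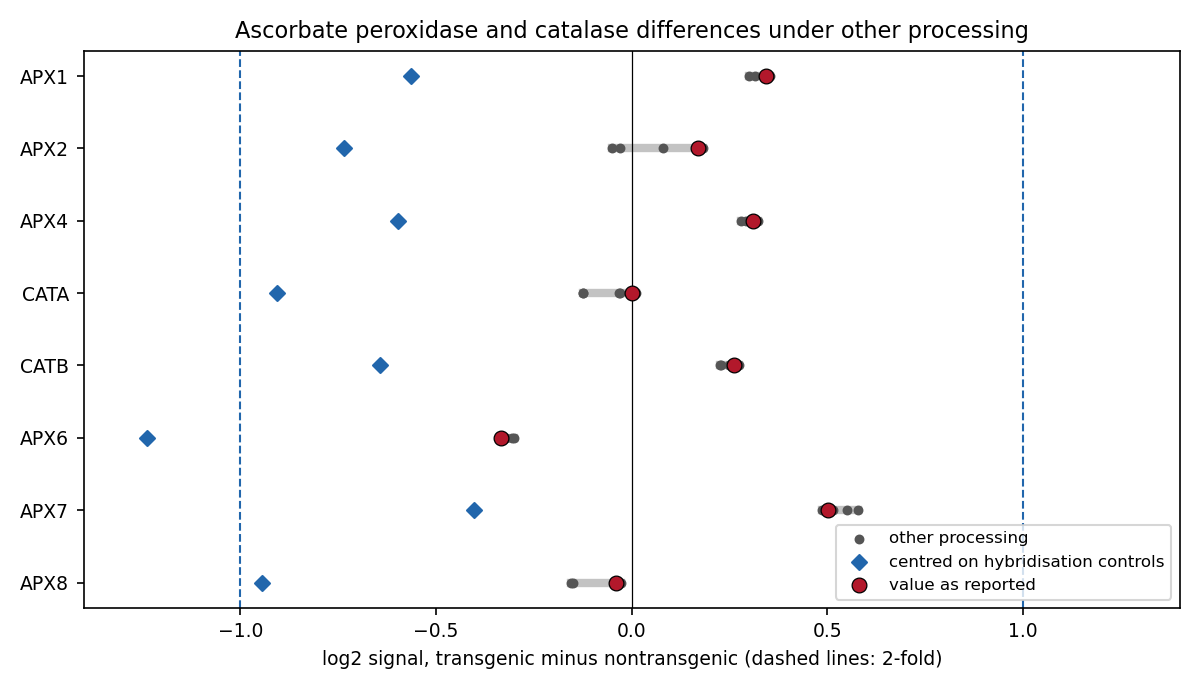
Difference in log2 signal (transgenic minus nontransgenic, horizontal) of each measured ascorbate peroxidase and catalase gene as reported (red), under 10 other ways of processing (grey points, bar from lowest to highest) and after centring on the hybridisation controls (blue diamonds). The grey values stay between -0.33 and 0.58; the control centring shifts every gene by the same amount and takes APX6 past the dashed 2-fold line.

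The differences moved little under other processing, part of which could not move them, while their zero point rested on the scaling. Removing the floor, placing it at the median or changing the level filter left the values of these bright genes unchanged. Probe set choices could not move genes with a single probe set, and median centring shifted every gene by the same amount. Under the 10 alternatives for the floor, scaling, probe sets and filter, APX1 ranged from 0.30 to 0.35, APX4 from 0.28 to 0.32, CATB from 0.23 to 0.27, APX7 from 0.49 to 0.58 and APX6 from -0.33 to -0.30. APX8 ranged from -0.16 to -0.03, CATA from -0.13 to 0.01 and APX2 from -0.05 to 0.18. Centring on the hybridisation controls moved the median of all genes to -0.92, and all 8 genes were then below 0, between -1.24 for APX6 and -0.40 for APX7. Since this centring subtracts the same amount from every gene, it could not change the distance of their median from that of all genes, 0.23. With quantile normalization that distance was 0.11 and with lowess centring 0.10.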

How the data were processed

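Leaf RNA was hybridised to 1-colour 3′ oligonucleotide arrays, 1 per group. The authors deposited log2 signals, for which the submitters' processing notes name MAS5 without version, target or calls. That they are log2 follows from their range and from equal trimmed means of the unlogged signals (2% trimmed at each end).

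After 187 control probe sets were set aside, signals below the 40th percentile of an array (4.61 transgenic, 4.41 nontransgenic) were raised to it. Probe sets had to reach the median of an array (32299 did). A gene was represented by its brightest passing probe set. The platform table gave 22436 probe sets 1 gene, and a rice gene table (assembly ASM3414082v1) served for names and neighbours. Names were matched by symbol or synonym, ignoring case, hyphens and the prefix Os. Members and lists were chosen with earlier results of these data known. The text names every member, list genes past 2-fold and the 2 brightest of each list, and says where another was added. Lists of dehydroascorbate reductases and glutathione peroxidases matched 0 genes. The code was tested on simulated arrays. Alternatives changed the floor, scaling, probe sets, filter and threshold. Per-sample columns left unmapped numbered 0. Python 3.11.15, pandas 2.3.3 and statsmodels 0.14.6 (lowess, span 0.3) were used.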

Additional observations from a re-analysis of the deposited data

How the results depend on the processing

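No paired analysis was possible because each group has 1 array. The count of ascorbate peroxidase and catalase genes past 2-fold was 0 under every alternative that changed the floor, the pseudocount of 16, the scaling, the choice of probe set, the level filter and the 1.5-fold threshold. Centring on the hybridisation controls, chosen after seeing the data, gave 1 (APX6), and their median difference was then -0.69, against 0.22 as reported and 0.10 to 0.23 under the others. The count of all genes past 2-fold, 1596 as reported, was 515 with the level filter at the 75th percentile, 3589 at 1.5-fold and 6462 with the control centring, under which 3.08% of the called genes were higher, in place of 57.8%. Of 88 values for single genes, 80 moved by no more than the scatter between probe sets. Many of these came from settings that could not move the gene. The 8 others all came from the control centring, which shifted every gene by the same amount. APX2 went below 0 with quantile normalization and lowess centring, and CATA, at -0.0005, went above 0 with median centring. Protein and promoter sequences were not analysed here. With 1 array per group, the spread between plants is unknown. Differences under the scatter between probe sets, 0.31 in the bright group and larger in the dimmer ones, cannot be told from that scatter.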

Other observations

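Of 5 measured mitochondrial genes of hydrogen peroxide and ascorbate metabolism, 4 had differences below 0 and 0 were called. Over all genes 51.4% were below 0 and 10.5% were called. The 4 were APX6, the manganese superoxide dismutase gene SODA, the peroxiredoxin gene PRXIIF and GLDH1, which encodes the last enzyme of ascorbate synthesis, with differences of -0.33, -0.26, -0.47 and -0.07. Those of SODA and GLDH1 were smaller than the scatter of 0.31, and with lowess centring GLDH1 came to 0.003. PRXIIF read 9.77 on the transgenic and 10.24 on the nontransgenic array, and GLDH1 read 9.28 on the transgenic and 9.35 on the nontransgenic array. The fifth gene, APX5, read 0.96 higher from a dim signal. The grouping was made after the values were seen. In the peroxisome 7 of 10 genes read above 0, with a median difference of 0.28, and in the cytosol 3 of 5, with a median of 0.06. Over all genes 48.6% were above 0, and over the brightest class 55.6%. Scaling mattered for the brightest peroxisomal genes. With quantile normalization PEX11-1 fell from 0.38 to 0.11 and GLO5 from 0.45 to 0.28. In the chloroplast the values ran widest, from -0.85 for SODCP to 0.996 for PRXIIE-1 over 6 genes.

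PMM, the phosphomannomutase gene of ascorbate synthesis, was named after its values were seen and was read by 3 probe sets that disagreed. The brightest, an _x_at set, stood at 9.27 on the transgenic and 10.19 on the nontransgenic array, 1.90-fold lower, while the other 2 read 7.55 and 5.84 on the transgenic array, against 7.27 and 5.31 on the nontransgenic array. LSD1 likewise had an _x_at set at 11.84 on the transgenic and 13.08 on the nontransgenic array, beside its brightest set, which differed by -0.35. Another _x_at set of LSD1 was level, at 12.88 on the transgenic and 12.84 on the nontransgenic array. A dimmer set differed by -0.17. Among genes with 3 or more passing probe sets, all sets had the same sign in 36.4%.

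The 3′ probe sets of the array maker's actin control exceeded its 5′ set by 5.05 on the transgenic and 4.85 on the nontransgenic array, on the log2 scale. For glyceraldehyde phosphate dehydrogenase the matching value was -1.95 on the transgenic and 3.91 on the nontransgenic array. For elongation factor it was -0.86 on the transgenic and -1.93 on the nontransgenic array. The sets of these 2 controls were close to or below the floor and are not used, so the comparison rests on actin alone.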
